A study of Mus with 2 samples.

Results

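Levels of 9 genes of antigen display and the interferon response were followed across the cell types of newborn mouse kidney. The genes were H2-Q6, H2-Q7, H2-K1, H2-D1, B2m, Rsad2, Isg15, Ifit1 and Ifit3, found by symbol among 28693 measured features, and all 9 were detected. They were chosen by their measured levels, which already differed between cell types in these same cells, so their levels are given as a description and carry no test. Kidneys were taken at P0 from mice of the genotype Rbpj c/- ; Foxd1cre/+, in which Cre under Foxd1 deletes the floxed Rbpj allele in the renal interstitium and c marks that floxed allele. The 2 libraries of this genotype, replicates 1 and 2, are described here. The control libraries (Rbpj c/+ ; Foxd1cre/+) were not analysed here, so every comparison is between cell types within mutant kidneys, and nothing below measures an effect of Rbpj. The labels do not say whether the libraries came from separate animals, and they state no strain and no sex. Spread between the libraries may therefore be technical.

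MHC class I molecules carry peptides from inside a cell to its surface, where T cells read them. A classical heavy chain (H2-K1 and H2-D1) pairs with the light chain B2m, and heavy chains need B2m to fold and reach the surface. H2-Q6 and H2-Q7 belong to the Qa group of non-classical heavy chains, and H2-Q7 encodes the Qa-2 antigen. Interferons bind receptors that activate STAT and IRF factors, and these switch on interferon-stimulated genes. Among them Rsad2 encodes viperin, which makes a chain-terminating nucleotide, Isg15 a ubiquitin-like protein, and Ifit1 and Ifit3 proteins that bind viral RNA or each other.

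All 4 heavy chain genes lie on chromosome 17 (build GRCm38.p6, RefSeq): H2-K1 at 33996012 to 34000619, H2-D1 at 35263094 to 35267497, H2-Q6 at 35424850 to 35430055 and H2-Q7 at 35439140 to 35443773. B2m lies on chromosome 2 (122147687 to 122153082), Isg15 on chromosome 4 (156199424 to 156200818) and Rsad2 on chromosome 12 (26442743 to 26456452). Ifit3 (34583119 to 34588982) and Ifit1 (34640889 to 34650009) neighbour each other on chromosome 19. All are annotated as protein-coding. H2-Q6 and H2-Q7 are near-identical copies, as are Ifit3 and Ifit3b, so the split of reads within each pair is uncertain. Class I genes also vary between mouse strains, and reads of another haplotype may be assigned differently.

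Replicate 1 held 163405630 unique molecular identifiers (UMIs, each standing for 1 captured RNA molecule) and replicate 2 held 135436576. After filtering, 5888 and 4907 cells were kept, with medians of 11712.5 and 12198 UMIs per cell, and 5 barcodes occurred in both libraries. A cell was assigned to a type when at least 3 of that type's 6 markers were detected and led every other type by at least 2. Names carry "-like" because they rest on markers alone. This gave 446 and 326 podocyte-like cells, 722 and 485 endothelial-like cells, 127 and 87 macrophage-like cells and 64 and 50 erythroid-like cells, and 10 types had at least 20 cells in each library, which are the types compared throughout. Unassigned cells numbered 2085 and 1657. The 6 podocyte markers summed to 6539 and 6025 CPM in podocyte-like cells, the 6 endothelial markers to 4261 and 3857 in endothelial-like cells and the 6 macrophage markers to 12555 and 11682 in macrophage-like cells, and none of these markers was at 0 in its own type. Levels below are UMIs of a gene per 1000000 UMIs of the type (CPM), given for replicate 1 and then replicate 2. UMIs were read from 3' ends, so they do not scale with gene length. Intervals cover counting error only.

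H2-Q6 and H2-Q7 were podocyte genes in these kidneys. H2-Q7 stood at 845 and 919 CPM in podocyte-like cells (mean 882 ± 52.9, SD, n = 2). The next type, early nephron-like cells, stood at 13.8 and 17.4 CPM, 56.6-fold lower by the means, and the other 8 types lay between 1.87 and 7.77 CPM in every library. H2-Q6 stood at 291 and 303 CPM in podocyte-like cells (mean 297 ± 9.01, n = 2) and at no more than 2.33 CPM in the libraries of the other 9 types. Mural-like cells, too few to be among the 10 types, held 3 H2-Q6 UMIs in 19 cells of replicate 1 (12.3 CPM) and 0 in 17 cells of replicate 2. Podocyte-like cells contributed 4.69% and 5.45% of the UMIs of all kept cells but held 94.5% and 95.2% of the H2-Q6 UMIs and 84.0% and 84.9% of the H2-Q7 UMIs. The podocyte libraries did not overlap those of any other type for either gene. Below the top, neighbouring types in the H2-Q6 order overlapped between libraries down to proximal tubule-like cells. Barcodes with at most 100 UMIs, which hold free RNA, carried H2-Q7 at 48.6 and 43.2 CPM, above the level in every type except podocyte-like cells.

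Most podocyte-like cells carried both transcripts. H2-Q7 was detected in 318 of 446 cells (71.3%, exact binomial 95% interval 66.9% to 75.5%) and in 257 of 326 cells (78.8%, 74.0% to 83.1%), at median depths of 7348.5 and 8047 UMIs. In endothelial-like cells, with deeper medians of 8372 and 9050 UMIs, the share was 2.49% and 3.09%. Thinned to 5000 UMIs per cell, which left out 53 and 23 shallower podocyte-like cells and 139 and 87 endothelial-like cells, H2-Q7 was seen in 65.4% and 72.3% of podocyte-like cells and in 0.858% and 0.754% of endothelial-like cells. Without thinning, 59.0% and 68.4% of podocyte-like cells had UMIs of both H2-Q6 and H2-Q7, and 26.5% and 19.0% had neither. The ratio of H2-Q7 to H2-Q6 UMIs was 2.91 and 3.03 in podocyte-like cells. In early nephron-like cells, on 18 and 12 H2-Q6 UMIs, it was 11.1 and 18.4. The single cell with the most H2-Q7 had 125 UMIs in replicate 1 and 108 in replicate 2.

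**Figure D1:**
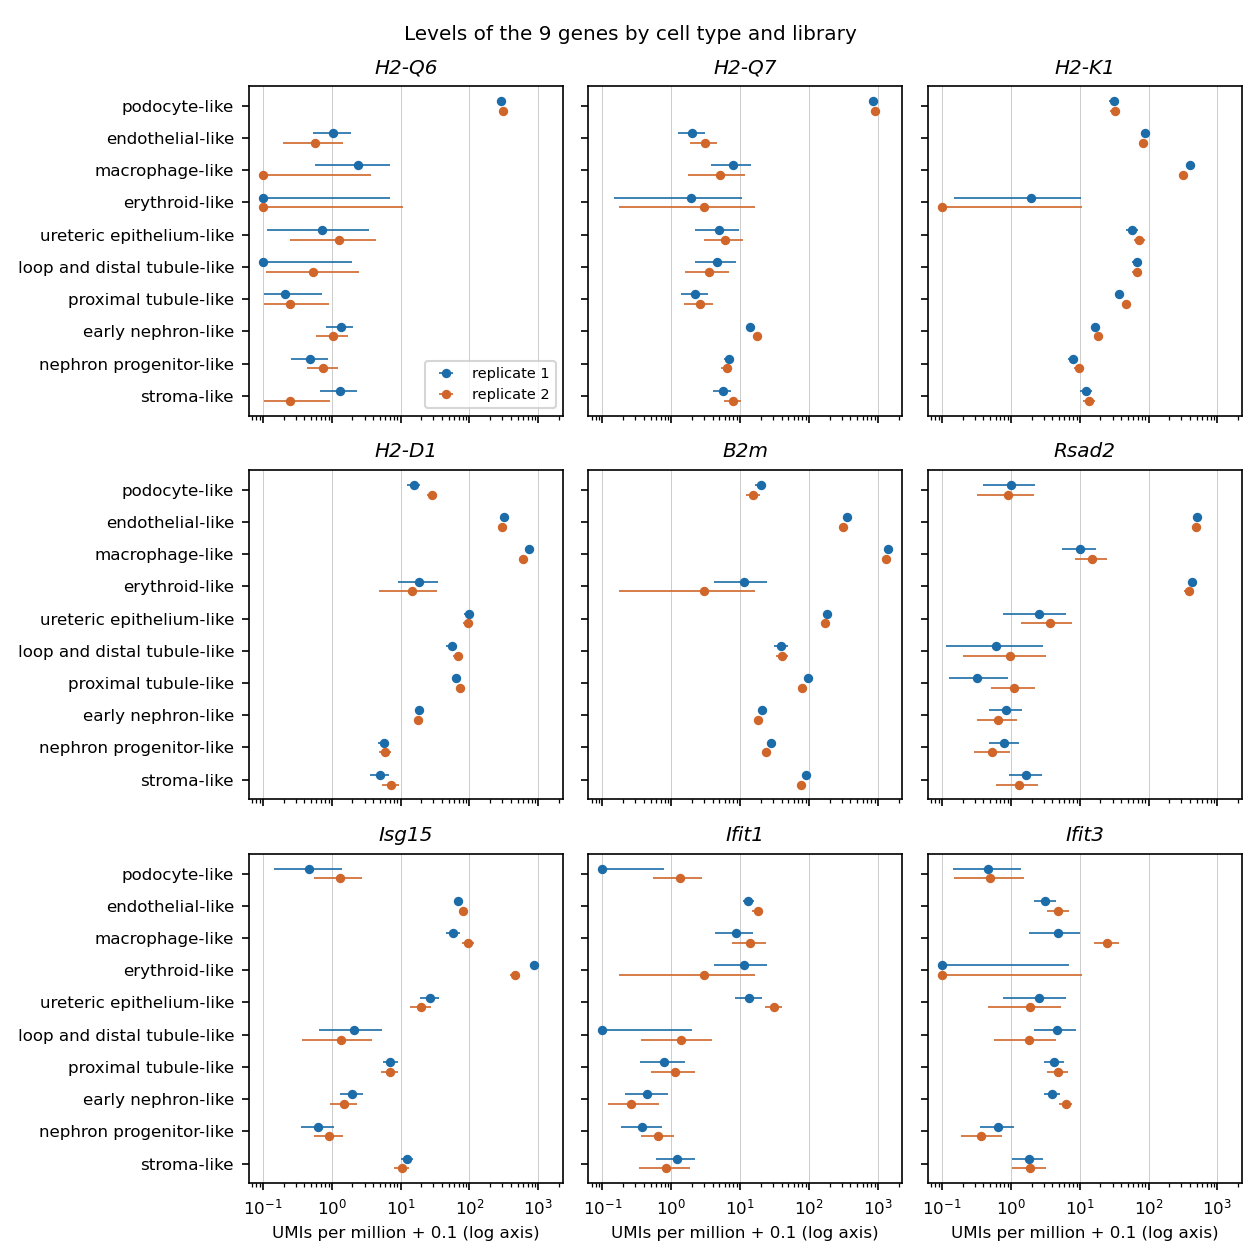
Each panel plots the level of 1 gene (horizontal log axis, CPM + 0.1) in 10 cell types, with a point for each library and its exact Poisson 95% interval. H2-Q6 and H2-Q7 stand far to the right in podocyte-like cells alone, where B2m lies near the left end of its own range, while Rsad2 is high in endothelial-like and erythroid-like cells.

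Within podocyte-like cells the 2 genes differed between clusters in a way that B2m did not share. Cells were clustered without any of the 9 genes and without the lists used below, so these clusters do not rest on them, and they are given as a description. Nphs1 encodes nephrin, a protein of the slit diaphragm between podocyte foot processes, and is also a gate marker. The cluster with Thsd7a and Nphs1 among its leading genes held 366 and 253 podocyte-like cells and had H2-Q7 at 1162 and 1410 CPM. The cluster led by R3hdml and Pcp4 held 55 and 45 such cells and had H2-Q7 at 92.5 and 293 CPM. A cluster led by Ms4a2 and Tagln held 22 and 26 such cells, with 1 and 8 H2-Q7 UMIs in all. Over all its cells, the mural and not the podocyte markers scored highest in that cluster, but weakly. Their mean was 0.512 SD above that of all kept cells, against 5.939 in the cluster led by Myh11. Tagln was the only mural marker among its leading genes, so the identity of the cluster is uncertain. The 3 clusters did not overlap in either library. H2-Q6 was ordered the same way, at 390 and 461 CPM, at 65.5 and 104 CPM, and at 0 and 1 UMI. Thinned to 5000 UMIs, H2-Q7 was seen in 78.7% and 84.9% of cells of the cluster with Nphs1 and in 18.5% and 44.2% of the R3hdml-led cluster. B2m stood at 19.6 and 14.0 CPM in the first cluster and at 18.3 and 9.20 CPM in the second. It stood at 30.4 and 17 CPM in the cluster led by Ms4a2 and Tagln, and the libraries of the clusters overlapped. H2-K1 was 37.4 and 36.2 CPM in the first cluster against 21.0 and 16.9 CPM in the second. Over all cells of the cluster led by Ms4a2 and Tagln, not its podocyte-like cells alone, H2-K1 was 44.8 and 27.9 CPM.

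**Figure D2:**
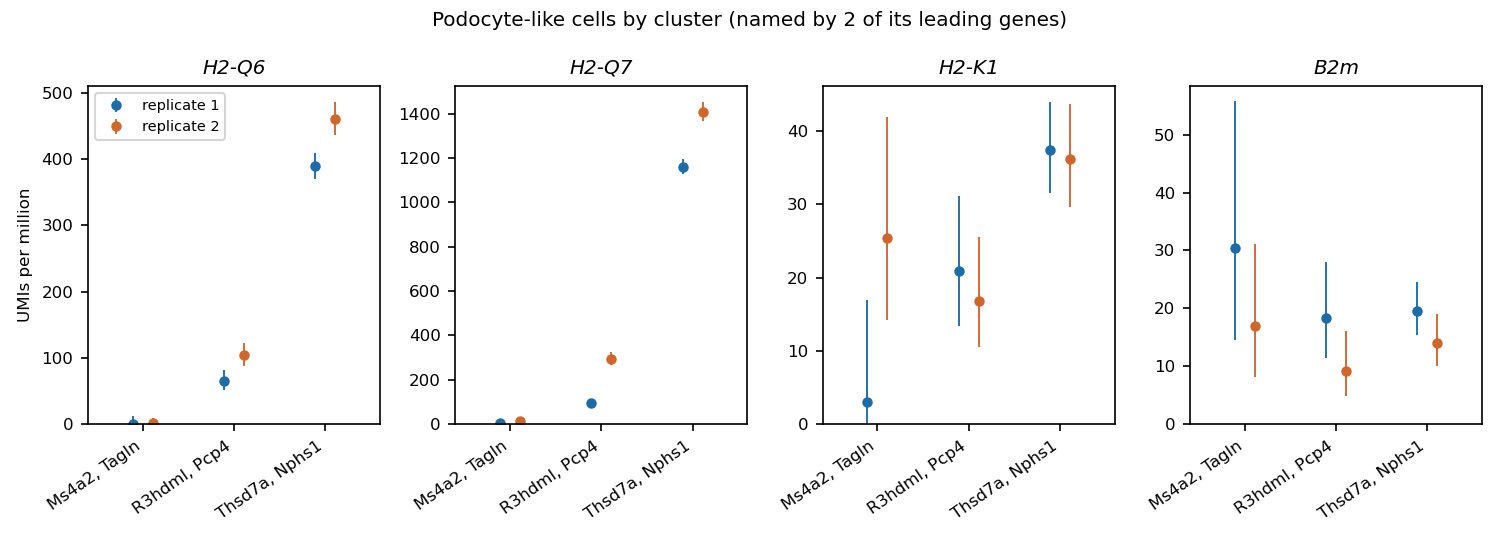
Levels in CPM (vertical axis, from 0) of 4 class I genes in podocyte-like cells of 3 clusters, each named by 2 of its leading genes, with a point for each library and its exact Poisson 95% interval. H2-Q6 and H2-Q7 climb from left to right in both libraries, to 1162 and 1410 for H2-Q7, and B2m does not.

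The classical heavy chains and B2m had another distribution, led by macrophage-like and endothelial-like cells. B2m stood at 1413 and 1298 CPM in macrophage-like cells (mean 1355 ± 81.5, n = 2), at 358 and 308 CPM in endothelial-like cells and at 185 and 169 CPM in ureteric epithelium-like cells, and these 3 did not overlap. H2-D1 stood at 745 and 597 CPM in macrophage-like cells, 317 and 294 CPM in endothelial-like cells and 98.2 and 95 CPM in ureteric epithelium-like cells. H2-K1 stood at 403 and 318 CPM in macrophage-like cells and at 88.1 and 82.0 CPM in endothelial-like cells. Loop and distal tubule-like cells (67.9 and 68.5 CPM) and ureteric epithelium-like cells (57.7 and 73.6 CPM) followed for H2-K1 and overlapped each other. The few T and NK lymphocyte-like cells, 2 and 7 in number and outside the 10 types, had B2m at 682 and 938 CPM. Granulocyte-like cells, 35 and 4 in number, had H2-D1 at 960 and 1312 CPM.

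Nephron progenitor-like and stroma-like cells were lowest for H2-D1, at 5.57 and 5.87 CPM and at 4.87 and 7.16 CPM. B2m was nonetheless 90.4 and 77.6 CPM in stroma-like cells, close to proximal tubule-like cells (97.3 and 79.4 CPM), whose libraries overlapped them. Erythroid-like cells held 6 and 1 B2m UMIs in all. At a limit of 5% instead of 10% mitochondrial UMIs, B2m in proximal tubule-like cells was 30.5 CPM in place of a mean of 88.3, and H2-D1 was 40.5 CPM in place of 69.4.

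Podocyte-like cells combined the highest H2-Q6 and H2-Q7 with little B2m. Their B2m was 19.9 and 15.2 CPM (mean 17.6 ± 3.34, n = 2), 77.1-fold below macrophage-like cells, overlapping early nephron-like cells (20.9 and 18.1 CPM) and above only erythroid-like cells in the order of means. Their H2-K1 was 31.5 and 32.1 CPM and their H2-D1 15.4 and 28.8 CPM. Summed over the 4 heavy chains, podocyte-like cells had 6460 and 6327 UMIs against 109 and 75 UMIs of B2m, or 0.0169 and 0.0119 B2m UMIs per heavy chain UMI. The ratio was 0.879 and 0.813 in endothelial-like cells, 1.22 and 1.41 in macrophage-like cells and 3.81 and 2.69 in stroma-like cells. The ratio was 0.306 and 0.291 in loop and distal tubule-like cells, 0.419 and 0.332 in early nephron-like cells and 0.500 and 0.167 in erythroid-like cells, the last on only 12 and 6 heavy chain UMIs. B2m was seen in 17.6% ± 2.36 (n = 2) of podocyte-like cells and 87.4% ± 2.08 of endothelial-like cells. Free RNA carried B2m at 326 and 327 CPM, more than in 8 of the 10 types in both libraries. The summed macrophage markers in podocyte-like cells were 18.7 and 16.8 CPM, with Adgre1 at 0 in both libraries, and the summed endothelial markers were 8.97 and 6.49 CPM, with none at 0. Other marker sums were higher there, with 297 and 259 CPM for stroma, 258 and 546 CPM for mural cells (Ren1 at 0 in both libraries) and 120 and 140 CPM for early nephron, and the remaining 8 sums were at most 54.2 CPM. The part of such RNA in these levels was not tested.

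Rsad2 marked endothelial-like cells, and also erythroid-like cells. It stood at 512 and 489 CPM in endothelial-like cells (mean 501 ± 16.3, n = 2), which held 88.8% and 87.5% of its UMIs. Erythroid-like cells had 427 and 390 CPM (mean 408 ± 26.8, n = 2), on 229 and 135 UMIs. The endothelial and erythroid libraries did not overlap, but the means differed by only 1.23-fold. Macrophage-like cells followed at 10.1 and 15 CPM, and no other of the 10 types exceeded 3.56 CPM. Rsad2 was detected in 75.1% and 78.4% of endothelial-like cells and in 75% and 74.0% of erythroid-like cells (median depths 8430.5 and 7082.5 UMIs), against 1.12% and 1.23% of podocyte-like cells. A larger unnamed cluster of 343 and 228 cells was led by the globin genes Hbb-bs and Hba-a2, with Alas2 also among its leading genes. Rsad2 was only 29.1 and 49.6 CPM there, seen in 9.04% and 12.3% of cells, at shallower medians of 3584 and 3547.5 UMIs. Free RNA carried Rsad2 at 35.2 and 30.4 CPM and Isg15 at 27.0 and 26.8 CPM. The 6 endothelial markers summed to only 11.2 and 5.77 CPM in erythroid-like cells, with Flt1 at 0 in replicate 1 and Pecam1, Cdh5, Kdr and Tie1 at 0 in replicate 2. The 5 erythroid markers measured summed to 10.2 and 8.51 CPM in endothelial-like cells.

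Isg15 was highest in erythroid-like cells and uneven among them. It stood at 859 and 453 CPM there (mean 656 ± 287, n = 2), on 460 and 157 UMIs, and the tenth of cells with the most Isg15 held 67.0% and 64.3% of these UMIs. It was seen in 32 of 64 and 23 of 50 erythroid-like cells. Macrophage-like cells (58.3 and 94.8 CPM) and endothelial-like cells (67.5 and 79.3 CPM) came next and overlapped. Ureteric epithelium-like cells stood at 26.4 and 19.6 CPM, stroma-like cells at 12.4 and 10.3 CPM, and podocyte-like and nephron progenitor-like cells were lowest, at no more than 1.22 CPM. When cells were assigned by clusters instead of marker counts, the erythroid mean was 402 CPM, and with a looser gate of 2 markers and a lead of 1 it was 377 CPM. Erythroid-like cells were highest in both settings as well. In the unnamed cluster led by Hbb-bs and Hba-a2, Isg15 was only 24.2 and 12.7 CPM.

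Ifit1 and Ifit3 were low in all 10 types, but Ifit3 was high in a small unnamed cluster. Ifit1 stood at 13.5 and 30.9 CPM in ureteric epithelium-like cells, 13.1 and 18.1 CPM in endothelial-like cells and 8.55 and 14.0 CPM in macrophage-like cells, and the libraries of neighbouring types overlapped. Erythroid-like cells stood at 11.2 and 2.89 CPM, on 6 and 1 UMIs. Without replicate 2, the ureteric epithelium-like value was 13.5 CPM in place of the mean of 22.2. All epithelial types other than ureteric, together with stroma-like and nephron progenitor-like cells, were at or below 1.28 CPM. Ifit3 was 4.66 CPM in macrophage-like cells of replicate 1 and 25 CPM in those of replicate 2. They were highest of the 10 types in both, but a clear lead rested on replicate 2. In replicate 1 loop and distal tubule-like cells were close, at 4.56 CPM. Next of the 10 types by the means were early nephron-like cells at 3.87 and 6.22 CPM, but in replicate 2 a single cell held 62 of their 79 Ifit3 UMIs. Endothelial-like cells stood at 3.09 and 4.79 CPM, and Ifit3 was not detected in erythroid-like cells, where 3 counts would be 5.60 and 8.66 CPM. Unassigned cells held 49.2% and 31.3% of the Ifit3 UMIs. An unnamed cluster of 34 and 20 cells, led by 1700016C15Rik, Bst1 and Plau and with the epithelial keratin gene Krt19 among its leading genes, had Ifit3 at 163 and 165 CPM, on 105 and 101 UMIs. Ifit3 was seen in 67.6% and 50% of its cells. The early nephron-like cell of replicate 2 with 62 Ifit3 UMIs lay in this cluster, since no other cluster of that library held more than 44. In replicate 2 the level thus rested on 1 cell for 62 of 101 UMIs, and the cluster was not wholly outside the 10 types. This level was above that of every type in both libraries. Isg15 was 112 and 60.4 CPM in the same cluster, Ifit1 14.0 and 19.6 CPM and Rsad2 1.56 and 3.26 CPM. This cluster is described because of its Ifit3 values, so they are no test. Free RNA held Ifit1 at 6.25 and 7.19 CPM and Ifit3 at 5.96 and 8.57 CPM.

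At equal depth, Isg15 was seen at nearly the same share in endothelial-like cells with and without Rsad2. Without thinning, Isg15 was seen in 37.3% and 43.4% of endothelial-like cells with Rsad2 and in 21.7% and 34.3% of those without. Thinned to 5000 UMIs, the shares were 22.7% and 26.0% with Rsad2 against 22% and 25.6% without. In erythroid-like cells the thinned shares were 67.5% and 48.1% with Rsad2 against 26.3% and 47.1% without, so that the libraries differed. Of the 4 interferon-response genes, at least 2 were seen in 20.2% and 21.9% of thinned endothelial-like cells, 45.8% and 29.5% of erythroid-like cells and 3.70% and 14.5% of macrophage-like cells. No thinned podocyte-like cell had more than 1.

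**Figure D3:**
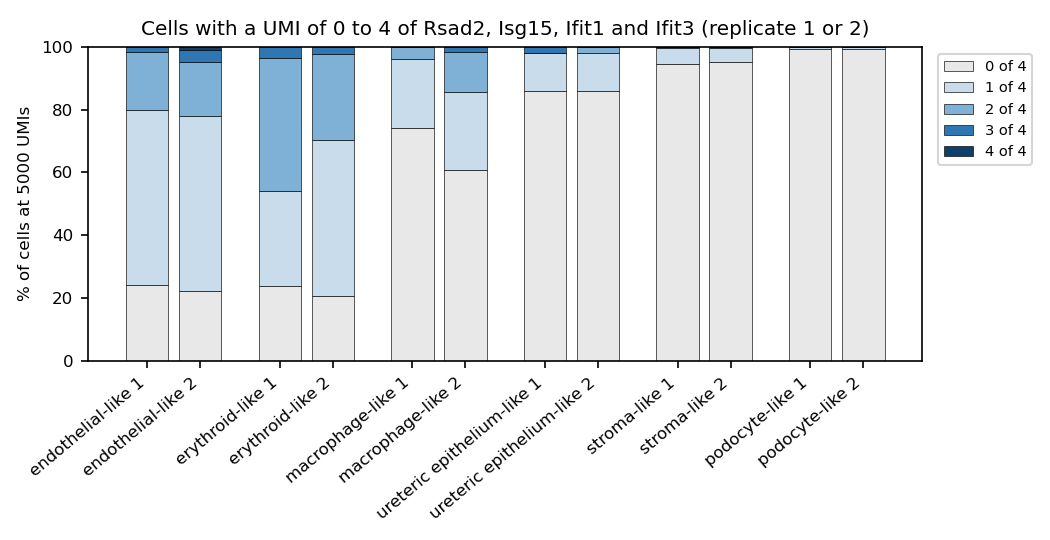
Stacked bars give the percentage of cells (vertical axis, each cell thinned to 5000 UMIs) with a UMI of 0 to 4 of Rsad2, Isg15, Ifit1 and Ifit3, for 6 cell types in replicates 1 and 2. Cells with at least 2 of the 4 make up 20.2% and 21.9% of endothelial-like cells and 45.8% and 29.5% of erythroid-like cells.

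Endothelial-like cells split into clusters in which Rsad2 and the class I genes were ordered differently. Rsad2 was 647 and 588 CPM in the cluster led by Rgcc and Aplnr (418 and 248 cells), the latter the apelin receptor of the capillary plexus. It was 567 and 545 CPM in the cluster led by Plvap and Cyp26b1 and 399 and 339 CPM in the cluster led by Gja4 that also had Sox17 among its leading genes, both arterial genes. In the cluster led by Cd300lg, Cyp4b1, Hlx, Gpihbp1 and Ehd3, the last a gene of glomerular endothelium, Rsad2 was 46.2 and 67.3 CPM over 48 and 31 cells. That cluster had the highest B2m of the 4, 541 and 579 CPM against 245 to 345 CPM in the other libraries. It also had the highest H2-D1 (486 and 504 CPM) and H2-K1 (128 and 150 CPM). Isg15 was 39.2 and 44.3 CPM there and 60.9 and 125 CPM in the Gja4-led cluster, whose libraries stood apart.

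**Figure D4:**
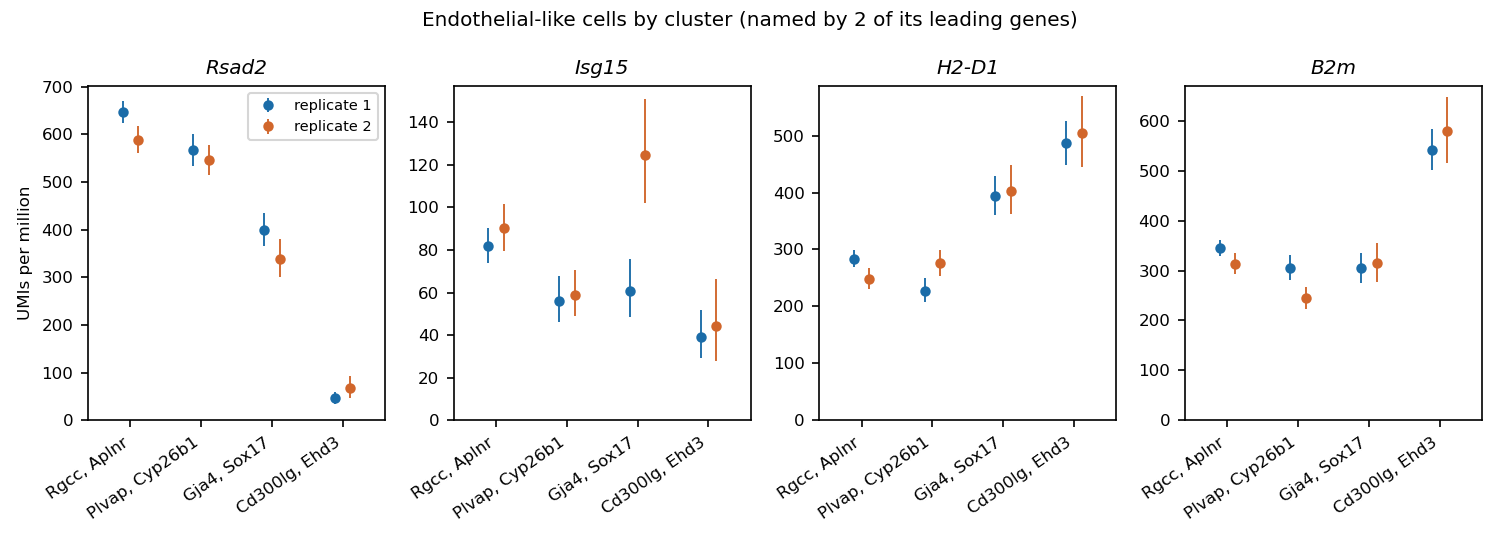
Levels in CPM (vertical axis, from 0) of 4 genes in endothelial-like cells of 4 clusters, each named by 2 of its leading genes, with a point for each library and its exact Poisson 95% interval. Rsad2 is lowest (46.2 and 67.3) in the cluster named Cd300lg, Ehd3, which is highest in H2-D1 and B2m.

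Genes with the most similar pattern over the 10 types were ranked by Pearson r of log2(mean CPM + 1) among 12163 genes, as a description over 10 points that share libraries. For H2-Q7 they were H2-Q6 (r = 0.976), the pacemaker channel gene Hcn4 (0.972; 26.4 CPM in podocyte-like cells) and the GABA receptor gene Gabra4 (0.972; 88.3 CPM). For B2m they were the guanylate-binding protein gene Gbp7 (0.965), Bcl3 (0.956) and Lgals3bp (0.954). For Rsad2 they were Ccrl2 (0.960), the blood and endothelial transcription factor gene Tal1 (0.934) and Carhsp1 (0.929), and for Ifit1 they were Dtx3l (0.851), Pfkfb3 (0.834) and Rtp4 (0.830). Across single endothelial-like cells, where r was low for every gene, Rsad2 went most with Cd34 (mean r over libraries 0.292) and Aplnr (0.291), then 1810011O10Rik, Sox4 and Lmo2. Ifit1 ranked 250 of 11212 genes (0.111) and Isg15 ranked 1972 (0.042).

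The other genes of these pathways were tested in podocyte-like, endothelial-like and macrophage-like cells. UMIs were summed per library and type, and each type was set against the mean of the other types on the log scale (edgeR's quasi-likelihood test, library as a block, Benjamini-Hochberg adjusted p under 0.05). The planned fit over all 10 types had a limit: 8410 of its 15028 genes had no UMI in at least 1 type, 8001 of them in erythroid-like cells, and for such a gene the mean of logs has no lower bound, so that a lower call can hardly be made for it. In simulated data, genes at 0 in erythroid-like cells were kept at 0 there. That fit then called many genes that were not changed in the tested type, and recovered none of the lowered genes at 0 in erythroid-like cells. For genes kept at 0 both outcomes follow from that setting, because the 0 itself parts them from the mean of the others. The error rate of the planned fit was therefore not measured. Because of that limit, counts are given from that fit and from a fit without erythroid-like sums, a choice made after seeing the data. Counts from the second fit cover the 11920 genes with a UMI in each of the remaining 9 types. It made few false calls on data simulated with 1 level per unchanged gene in all types. Fold changes and p-values for single genes are from the second fit.

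In podocyte-like cells more interferon-stimulated genes were called lower than higher. Of the 39 other interferon-stimulated genes tested in the planned fit, 3 were higher and 14 lower, where 40.9% of all genes tested were called, 29.6% higher and 11.2% lower. Without erythroid-like sums, 4 of 30 were higher and 23 lower, where 64.9% of all genes were called, 34% higher and 30.9% lower, and the median log2 fold change was -1.66 against 0.01 over all genes. Bst2, which encodes tetherin, was 2.74 and 6.29 CPM against 456 and 595 CPM in macrophage-like cells (log2 fold change -3.63 ± 0.28, SE, edgeR adjusted p = 1.03e-09), a call lost in the planned fit at a minimum of 5000 UMIs per cell. Ifitm3, a membrane protein that restricts viral entry, was 9.33 and 8.72 CPM (-3.81 ± 0.18, adjusted p = 5.34e-13), and Rtp4 was 0.366 and 0.811 CPM (-3.32 ± 0.48, adjusted p = 7.13e-06). Low levels were not particular to podocyte-like cells. Nephron progenitor-like and early nephron-like cells had mean Rtp4 of 0.542 and 0.799 CPM, against 0.589 in podocyte-like cells. Their mean Gbp7 was 2.06 and 1.21 CPM against 2.31, and their mean Lgals3bp 3.69 and 2.06 CPM against 2.88. The chemokine gene Cxcl10 was higher, at 20.7 and 65.7 CPM against at most 28.5 CPM elsewhere (4.49 ± 0.38, adjusted p = 3.71e-09), and its libraries differed by more than 3 times. The other genes called higher were Ifitm1, Ifi27 and Herc6, named after their values were seen.

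Among the other class I heavy chains, 3 of 9 tested were higher and 0 lower in podocyte-like cells, and without erythroid-like sums 3 of 8 were higher and 2 lower, shares near those of all genes. H2-T23, which encodes the non-classical chain Qa-1, was 46.1 and 44.0 CPM (2.38 ± 0.12, adjusted p = 1.83e-12). H2-Q10 was 4.39 and 5.68 CPM (3.39 ± 0.43, adjusted p = 1.46e-06) and H2-Q4 was 16.5 and 15.8 CPM (0.65 ± 0.14, adjusted p = 6.68e-04), the latter not called in the planned fit at a limit of 5% mitochondrial UMIs. Of the 13 genes of peptide loading, 1 was higher and 5 lower, where 29.6% of all genes were higher and 11.2% lower. Without erythroid-like sums 1 was higher and 9 lower, where 34% of all genes were higher and 30.9% lower. But in the planned fit at a limit of 5% mitochondrial UMIs, which held 8 types, 2 were higher and 2 lower. The higher gene was Tapbp, which encodes tapasin, at 58.7 and 58.0 CPM (1.43 ± 0.08, adjusted p = 7.72e-12). Among the lower genes were Psmb8 (-3.01 ± 0.34, adjusted p = 2.18e-07, on 3 and 8 UMIs) and Psmb10 (-1.37 ± 0.13, adjusted p = 1.66e-08), named after their values were seen, and the chaperone gene Calr (-0.41 ± 0.08, adjusted p = 2.59e-04). Tapbpl was lower too (-0.72 ± 0.23, adjusted p = 0.0103), but its direction turned in the planned fit without doublet removal (0.078), which held 11 types. Psme2 was called lower in the planned fit only (-0.13 ± 0.07, adjusted p = 0.126 without erythroid-like sums).

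The interferon sensing list was mixed in podocyte-like cells, with 4 of 18 genes higher and 4 lower, and 4 and 5 of 17 without erythroid-like sums, near or below the shares of all genes called (40.9% and 64.9%). Irf7, a factor that amplifies the interferon response, was 0.915 and 1.22 CPM (-2.50 ± 0.46, adjusted p = 1.02e-04; not called in the planned fit without doublet removal), and Irf9 was 7.68 and 10.3 CPM (-0.98 ± 0.14, adjusted p = 5.15e-06). The feedback inhibitors went apart, with Socs1 lower (-1.31 ± 0.28, adjusted p = 4.33e-04) and Socs3 higher (1.09 ± 0.29, adjusted p = 0.00329), the latter not called in the planned fit at the 5% limit. Of the class II genes, H2-DMb1 was higher at 16.6 and 22.1 CPM (2.22 ± 0.18, adjusted p = 2.04e-09). No class II gene was called lower among 6 in the planned fit by edgeR (2 had an unadjusted p under 0.05 in either direction). DESeq2 called 5 lower, where it called 23.5% of all genes lower. Without erythroid-like sums 3 of 5 were lower, where 30.9% of all genes were lower.

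Endothelial-like cells were higher in most genes of these lists. Of the 39 interferon-stimulated genes 30 were higher and 1 lower, where 40.5% of all genes were called, 32.2% higher and 8.28% lower. Without erythroid-like sums 28 of 30 were higher and 1 lower, where 60.2% of all genes were called, 31.9% higher and 28.3% lower, and the median log2 fold change was 1.91 against 0.00 over all genes. Ifi44 was 71.7 and 92.6 CPM against at most 10.1 CPM in any other type (6.51 ± 0.15, adjusted p = 5.65e-18). Trim30a (43.5 and 34.5 CPM), Slfn2 (61.7 and 41.3 CPM) and Ifi47 (10.3 and 9.12 CPM) were called higher as well, though each was higher still in macrophage-like cells. The 1 lower gene was Ifitm1, at 6.38 and 2.01 CPM against 347 and 278 CPM in stroma-like cells. In peptide loading 10 of 13 were higher, and 11 of 13 without erythroid-like sums, with none lower in either. The immunoproteasome genes Psmb8 (77.8 and 70.5 CPM), Psmb9 (12.2 and 13.5 CPM) and Psmb10 (86.0 and 69.0 CPM) were among them, with the peptide transporter gene Tap1 (12.2 and 16.5 CPM).

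Of the other heavy chains 6 of 9 were higher in endothelial-like cells, where 32.2% of all genes were higher. Without erythroid-like sums 5 of 8 were higher, where 31.9% of all genes were. Cd1d1, which presents lipids, was highest there of all types, at 34.4 and 36.8 CPM (3.06 ± 0.17, adjusted p = 4.60e-12). H2-T23 (34.5 and 38.4 CPM), H2-M3 (8.19 and 5.41 CPM) and H2-T24 (3.83 and 3.87 CPM) were also called. In interferon sensing 15 of 18 were higher, and 16 of 17 without erythroid-like sums, with none lower. Over all genes, 32.2% and 31.9% were higher in the 2 fits. The sensing genes called higher included Irf1 (26.7 and 23 CPM, 2.48 ± 0.19, adjusted p = 8.42e-10), Irf8, Stat2 and the receptor chain gene Il10rb. Class II genes were not higher: H2-Eb1 was 0.638 and 0.928 CPM on 6 UMIs in each library (-2.29 ± 0.94, adjusted p = 0.0477). It was the only one called of 6 in the planned fit and was not called there without doublet removal. All 5 genes counted were lower without erythroid-like sums, where 28.3% of all genes were lower.

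Macrophage-like cells were higher in nearly every list. Of the interferon-stimulated genes 35 of 39 were higher and 1 lower, where 35.9% of all genes were called, 24.3% higher and 11.6% lower. Without erythroid-like sums 27 of 30 were higher and 1 lower, where 51.4% of all genes were called, 24.1% higher and 27.3% lower. The lower gene in both was Cmpk2, a mitochondrial nucleotide kinase gene that neighbours Rsad2, with 0 and 2 UMIs there against a level of at least 25.2 CPM in endothelial-like cells. Zbp1, a nucleic acid sensor gene, was 64.5 and 61.9 CPM and no more than 0.464 CPM elsewhere. Slfn2 (466 and 371 CPM), Trim30a (151 and 137 CPM) and Phf11d (22.5 and 29.9 CPM) were also highest in macrophage-like cells. All 13 loading genes were called higher in both fits, led by Psmb8 (288 and 318 CPM; 6.33 ± 0.12, adjusted p = 3.32e-19) and Psmb9 (89.4 and 127 CPM; 6.11 ± 0.24, adjusted p = 3.83e-14).

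Of the other heavy chains 6 of 9 were higher in macrophage-like cells (5 of 8 without erythroid-like sums), where 24.3% of all genes were higher (24.1%). Among them were H2-M3 (32.6 and 43.9 CPM), H2-T23 (52.1 and 71.9 CPM) and H2-T22 (24.1 and 28.0 CPM). In interferon sensing 14 of 18 were higher, and 14 of 17 without erythroid-like sums, beside the same 24.3% and 24.1% of all genes. The factor genes Irf8 (162 and 214 CPM) and Irf7 (87.8 and 77.9 CPM) and the receptor genes Ifngr1 (342 and 296 CPM) and Ifnar2 (166 and 175 CPM) were the genes named by the rule of size. Class II genes were higher, 6 of 6 and 5 of 5, led by the invariant chain gene Cd74 (207 and 254 CPM; 6.02 ± 0.25, adjusted p = 9.32e-14), with H2-Aa, H2-DMa and H2-Ab1. Cd74 was also present in proximal tubule-like cells (53.7 and 69.4 CPM) and nephron progenitor-like cells (42.4 and 28.3 CPM), and H2-Ab1 was as high in nephron progenitor-like cells (55.2 and 43.5 CPM) as in macrophage-like cells (38.1 and 48.9 CPM), the libraries overlapping.

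**Figure D5:**
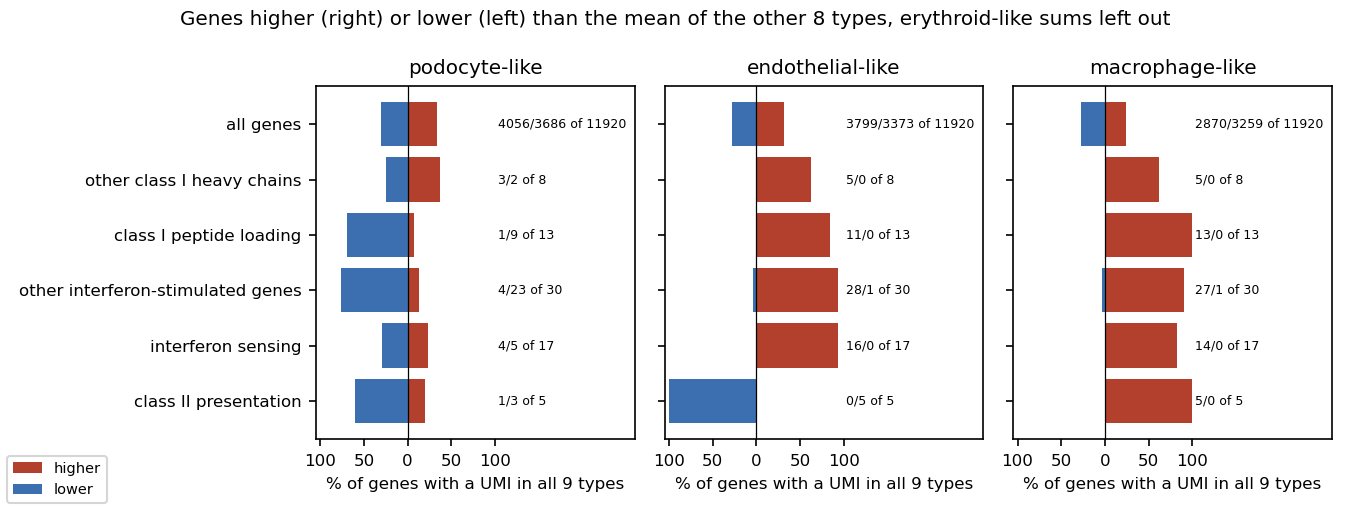
Bars give the percentage of genes of each list (horizontal axis, of genes with a UMI in all 9 types) called higher (right) or lower (left) than the mean of the other 8 types, without erythroid-like sums; the figures beside them are higher/lower of the number counted. Interferon-stimulated genes point left in podocyte-like cells (4 higher and 23 lower of 30) and right in endothelial-like and macrophage-like cells.

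Erythroid-like cells entered no test of their own. Of the other interferon-stimulated genes Isg20, an exonuclease gene, was 510 and 597 CPM in them and at most 10.0 CPM in any other type, and Ifi27 was 196 and 98.1 CPM. Ifi44, Usp18 and Gbp2 had no UMI in them. These 5 genes were singled out after their values were seen.

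Transcripts of the interferons themselves were nearly undetected. Of 10 ligand genes, Ifna1, Ifna2, Ifna4, Ifna5, Ifnb1, Ifng, Ifne, Ifnl2 and Ifnl3 had no UMI in any kept cell, where 3 counts would be 0.0257 and 0.0332 CPM. Ifnk, an epithelial type I interferon, had 35 and 19 UMIs, spread over several types and unassigned cells.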

How the data were processed

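Single-cell RNA-seq (10x Chromium, 3' ends) was read from 2 unfiltered count matrices of P0 mutant kidneys. The authors deposited raw UMI counts per gene and barcode, made with Cell Ranger 6.0.1 on mm10 per the submitters' processing notes, while the file headers name Cell Ranger 4. No normalization is recorded in the files. The 9 genes and all lists were chosen with earlier results of these data known.

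Barcodes with at least 2000 UMIs and at most 10% mitochondrial UMIs were kept (690 and 768 were removed for the latter), and 332 and 242 cells with the highest Scrublet doublet scores were removed, at a rate that rose with the number of cells. The marker gate assigned cells, and the clusters used Leiden (scanpy 1.11.5) without the 9 genes, the lists and sex-linked genes. Levels are CPM with exact Poisson intervals, and shares of cells have exact binomial 95% intervals. Similarity was Pearson r on log2(mean CPM + 1).

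UMI sums per library and type with at least 20 cells in each library were fitted in edgeR 4.0.16 (R 4.3.3; TMM, filterByExpr, quasi-likelihood test, library as a block, residual degrees of freedom 9) and adjusted over all genes tested. The library block pairs the types because they come from the same 2 libraries. The block removes the overall difference between the libraries. The p-values therefore rest on how unevenly types differ between the 2 libraries, pooled over types, and this spread may be technical. Both fits were tested on simulated data. For the planned fit, genes at 0 in erythroid-like cells were simulated at 0 there. It called many genes not changed in the tested type and missed lowered genes at 0 in erythroid-like cells. The 0 parts such genes from the mean of the others, so this did not measure an error rate. The fit without erythroid-like sums made few false calls. Named genes are up to 4 per list and type with the largest change among those called and changed the same way in both libraries. At least 20 UMIs in each library were needed, in the type for a higher gene and in the other types pooled for a lower gene. Alternatives were DESeq2 1.42.0, RLE size factors, no low-count filter, no block, other cell filters, gates and clusters, and each library left out. Leaving out erythroid-like sums was added after seeing the data. RefSeq (GRCm38.p6) gave positions.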

Additional observations from a re-analysis of the deposited data

How the results depend on the processing

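Podocyte counts moved both with the handling of erythroid-like sums and with the test. Without erythroid-like sums, called genes in podocyte-like cells went from 17 to 28 of the interferon-stimulated genes (4 higher, 24 lower; 27 among genes with a UMI in every type), from 6 to 10 of the loading genes, from 3 to 5 of the other heavy chains and from 1 to 4 of the class II genes (1 higher, 3 lower), and in endothelial-like cells from 1 to 5 of the class II genes. Lower calls over all genes rose too, from 11.2% to 24.6% in podocyte-like and from 8.28% to 22.4% in endothelial-like cells. DESeq2 called 30 interferon-stimulated genes (2 higher, 28 lower), 5 heavy chains and 6 class II genes (1 higher, 5 lower) in podocyte-like cells, and 6 class II genes in endothelial-like cells, where it called 23.5% and 22.7% of all genes lower. Podocyte class II calls numbered 2 with no low-count filter, 3 at a limit of 5% mitochondrial UMIs, 3 with a gate of 2 markers and a lead of 1, and 4 with types from clusters. In those last 3 settings more were lower than higher, the reverse of the planned fit. At the 5% limit, where the fit held 8 types, 1 podocyte heavy chain was called of 7 tested. Endothelial class II calls numbered 2 at the 5% limit, 0 without doublet removal, 4 with the looser gate and 3 with clusters. Podocyte loading genes were 2 higher and 2 lower at the 5% limit, and 1 higher and 3 lower at a minimum of 5000 UMIs or without doublet removal. For every other list and setting the number called in either direction stayed within 1.5 times, though single calls in the minority direction came and went.

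Without the replicate block, podocyte calls were 15 interferon-stimulated and 5 loading genes, and all 52 named gene results kept their side of the threshold, as they did with DESeq2 and with types from clusters. Calls were lost for 1 each with RLE size factors, no filter and the looser gate (Tapbpl in podocyte-like cells each time), and for 1 without erythroid-like sums (Psme2). They were lost for 2 at 5000 UMIs (Tapbpl and Bst2), 2 without doublet removal (Irf7 in podocyte-like and H2-Eb1 in endothelial-like cells) and 3 of 51 at the 5% limit (H2-Q4, Tapbpl and Socs3). Tapbpl changed sign without doublet removal (log2 fold change 0.078). The fit held 11 types without doublet removal, with the looser gate and with types from clusters, and 8 at the 5% limit, in place of 10. The types compared thus changed along with these settings, and the 2 changes cannot be told apart. Leaving out 1 library leaves no residual degrees of freedom, so such values carry no test. Values of 13 of the 52 without replicate 1 and 20 without replicate 2 stayed within 1 SD of the fitted ones, the others moved further, and 0 were reversed. Of 40 member levels of at least 10 CPM, 39 stayed within 1.5 times without replicate 1 and 38 without replicate 2. The exceptions were Ifit3 in macrophage-like cells, 4.66 to 25 CPM, and Ifit1 in ureteric epithelium-like cells, 13.5 CPM without replicate 2. Ifit1 in macrophage-like cells was 4.30 CPM at the 5% limit against 11.3 CPM. With 58 and 51 ureteric epithelium-like and 64 and 50 erythroid-like cells, few cells limit the values of Ifit1 and Ifit3 in these types.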
